A study of Mus musculus with 6 samples.

Results

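The 10 genes described here encode enzymes, and a protein that assists them, that turn arachidonic acid into prostaglandins and leukotrienes: the cyclooxygenases Ptgs1 and Ptgs2, the prostaglandin synthases Ptges, Ptgds, Hpgds and Ptgis, and the lipoxygenase branch Alox5, Alox5ap, Ltc4s and Alox15. They were chosen by name, as 10 of the 48897 genes in the deposited table, and all 10 passed the filter on low counts. Messenger RNA of epididymal white adipose tissue was sequenced from wild-type C57BL/6 mice aged 35 weeks, with 2 libraries in each of 3 diet groups. Group F-H-L is read as mice that had 9 weeks of a high-fat diet and then 10 cycles of 1 week low-fat and 1 week high-fat. Group F-H is read as continuous high-fat feeding and group F-L as continuous low-fat feeding. The diets drew 60% (high-fat) or 10% (low-fat) of calories from fat and began at 6 weeks of age in all groups. The labels tie the group codes to these diets by their letters only, and do not state in which diet week the cycled mice were sampled. On the schedule as read, the last cycle would end at 35 weeks of age, the age given, after a high-fat week. The labels also do not state whether each library is a different mouse. The p-values then rest only on how much the libraries of a group differ, a spread that may be technical.

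Arachidonic acid is released from membrane phospholipids and can take either of 2 routes. In the prostanoid route, a cyclooxygenase makes prostaglandin H2, which a terminal synthase converts into prostaglandin E2, prostaglandin D2, prostacyclin or thromboxane. In the leukotriene route, 5-lipoxygenase works with the membrane protein that presents arachidonic acid to it and makes leukotriene A4, which leukotriene C4 synthase joins to glutathione. In fat tissue these lipids are made by resident immune and stromal cells as well as by adipocytes, and the E and D series prostaglandins are known regulators of lipolysis and adipocyte differentiation.

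The libraries held 41091012 to 49230161 counts each. Levels are given as CPM, the counts of a gene scaled to its library total after TMM adjustment, unless RPKM (also scaled by gene length) is named, and a count of 0 limits a level to at most 0.0537 to 0.0754 CPM, by library (3 counts). F-L replicate 1 stood apart from the others. Its 15 adipocyte markers summed to 2948 CPM, against 18878 to 46590.1 CPM in the other 5 libraries, and its 20 epididymis markers summed to 24824 CPM, against 4.10 to 4648 CPM in the others. The 18 macrophage markers summed to 2391 and 1949 CPM in F-H-L and 19701 and 10387 CPM in F-H, against 553 and 1201 CPM in F-L, with no marker at 0 in any library. The 14 testis germ cell markers summed to 171 and 192 CPM in F-H-L and 38.9 and 47.2 CPM in F-H, against 793 and 6716 CPM in F-L. In bulk tissue, fewer cells of a type and less RNA per cell cannot be told apart.

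The members did not move as a group. In F-H against F-L, the prostaglandin D synthase gene Hpgds rose, the only member past the test (adjusted p under 0.05), where 0.866% of the 22289 genes tested passed (193 genes, none of which passed with median-ratio factors in place of TMM or without any 1 of the F-H-L and F-H libraries). No member passed in F-H-L against F-L or in F-H-L against F-H, where 0% of genes passed in each. At an unadjusted p under 0.05 the members counted 6 of 10 in F-H against F-L, 5 in F-H-L against F-L and 4 in F-H-L against F-H, beside 29.2%, 17.8% and 10.6% of all genes tested. The median log2 fold change of the members was 1.15, 0.78 and 0.24 in these comparisons, and that of all genes tested was -0.12, -0.09 and 0.10. F-L served in the first and second of these and F-H in the first and last, so the comparisons share libraries.

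DESeq2, applied to the same counts with its own size factors, called 6 of the 10 genes in F-H against F-L, where it called 27.1% of all genes. They were Hpgds, Alox5ap and Ptgs2 on the higher side and Ptgds, Ptges and Ptgs1 on the lower side. In F-H-L against F-L it called Ptgds alone, on the lower side, beside 11.6% of all genes, and in F-H-L against F-H it called 4 (Ptgds higher, Ptgs2, Hpgds and Alox5ap lower), beside 5.93% of all genes.

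**Figure D1:**
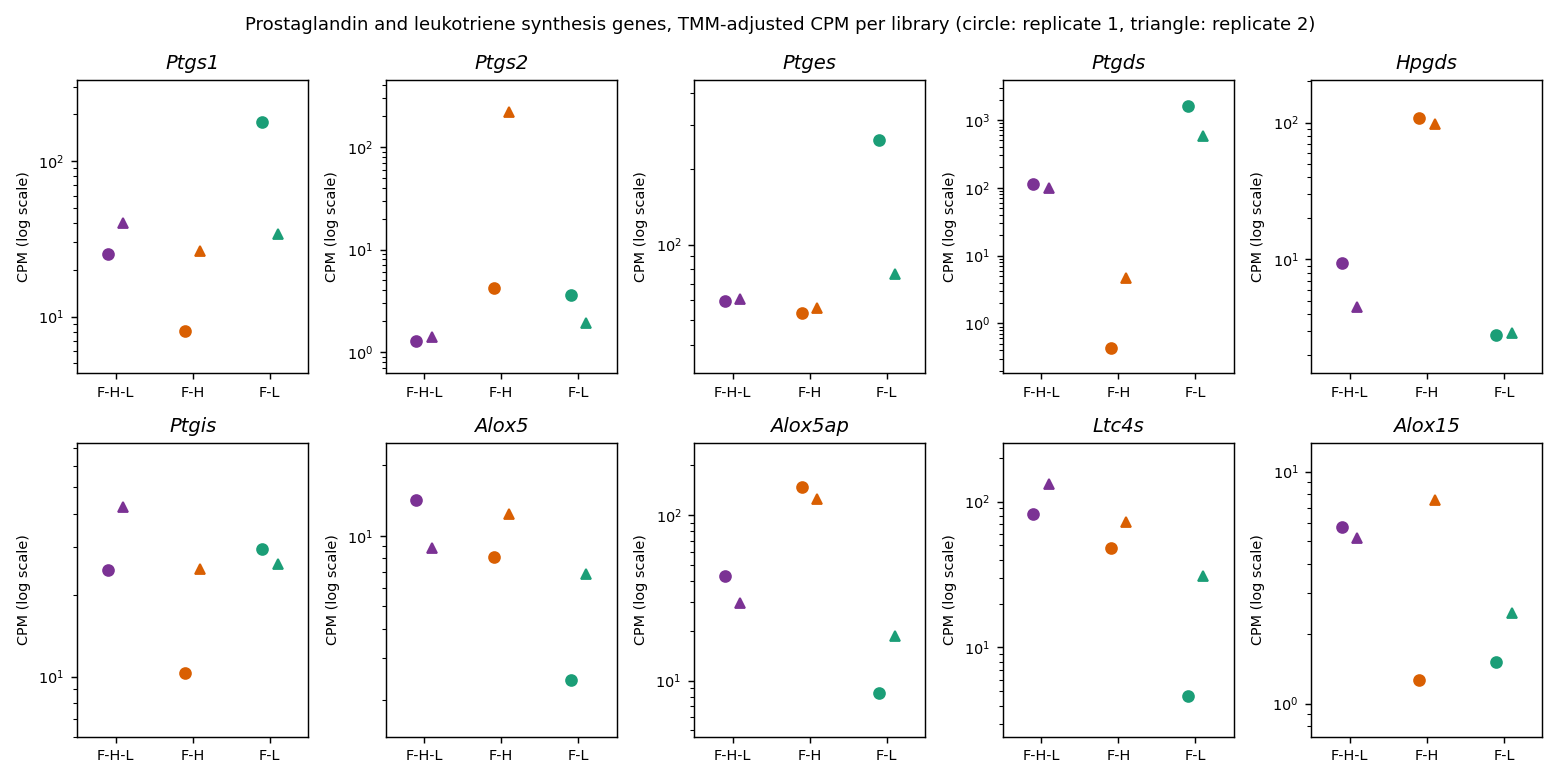
Level of each of the 10 genes (CPM, log axis) in the 2 libraries of F-H-L, F-H and F-L; each point is a library. Hpgds and Alox5ap are highest in both F-H libraries, Ptgds is lowest there, and Ptgs2 is high in F-H replicate 2 (219 CPM).

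The libraries of the groups often did not overlap, as they did not for much of the genome. In F-H against F-L, 5 members were higher in both F-H libraries (Ptgs2, Hpgds, Alox5, Alox5ap and Ltc4s) and 4 were lower (Ptgs1, Ptges, Ptgds and Ptgis), where 27.0% and 28.8% of all genes tested did so. In F-H-L against F-L, 5 were higher without overlap (Hpgds, Alox5, Alox5ap, Ltc4s and Alox15) and 3 lower (Ptgs2, Ptges and Ptgds), beside 29.8% and 23.8% of all genes. In F-H-L against F-H, 3 were higher (Ptges, Ptgds and Ltc4s) and 3 lower (Ptgs2, Hpgds and Alox5ap), beside 35.6% and 25.6% of all genes.

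The 10 genes spanned a wide range of levels per length. In RPKM, Ptgds led in F-L (1929.7 and 728) and stood beside Ltc4s at the head in F-H-L (122 and 96.8 for Ptgds, 121 and 182 for Ltc4s). In F-H, Alox5ap led in both libraries (135 and 123 RPKM) and Ltc4s came next (67.3 and 108 RPKM), while Ptgds was at 0.447 and 5.06 RPKM. Ptges held the middle of the order in F-H-L and F-H, at 15.8 and 15.0 RPKM in F-H-L and 13.5 and 15.1 RPKM in F-H, and its neighbour Ptgis overlapped it in F-H-L, at 13.7 and 21.9 RPKM. Alox15 was at 0.125 to 0.804 RPKM over the 6 libraries, but the deposited length of 9287 bases compares with 2454 exonic bases in GENCODE M21, and a longer length lowers the value per length. Other lengths differed too, among them Ptgs1 (6092 deposited, 3884 in GENCODE), Ptgds (909 and 1649), Ltc4s (660 and 1014) and Hpgds (3586 and 6425). All values per length and ratios between genes given here rest on the deposited lengths.

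Promoter sequence was available for 7 of the 10 genes in RefSeq (GRCm38.p6). The windows of Ptgs2 and Alox5 are shown whole, as the inducible cyclooxygenase and the first lipoxygenase of the 2 routes; RefSeq and the deposited table place their starts at the same base, as they do for Ptges and Ltc4s. They are the 250 bases before the start, 5′ to 3′ on the strand of the gene, at chr1:150099781-150100030 (plus strand) for Ptgs2 and chr6:116461179-116461428 (minus strand) for Alox5, and capitals mark the motif matches named after them.
Ptgs2: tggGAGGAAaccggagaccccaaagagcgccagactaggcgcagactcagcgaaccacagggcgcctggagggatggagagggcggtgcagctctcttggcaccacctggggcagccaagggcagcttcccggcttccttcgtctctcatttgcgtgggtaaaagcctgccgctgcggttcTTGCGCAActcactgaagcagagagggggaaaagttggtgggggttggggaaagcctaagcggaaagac
Alox5: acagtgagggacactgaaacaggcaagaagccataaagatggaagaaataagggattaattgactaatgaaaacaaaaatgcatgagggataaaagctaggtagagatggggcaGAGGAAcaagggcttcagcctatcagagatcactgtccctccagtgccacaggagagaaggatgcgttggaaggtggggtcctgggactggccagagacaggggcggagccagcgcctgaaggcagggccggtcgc
In Ptgs2 the capitals are a PU.1 motif (GAGGAA, bases -247 to -242 from the start) and a C/EBP motif (TTGCNNAA, bases -69 to -62, which reads as a match on both strands). In Alox5 they are a PU.1 motif (bases -136 to -131).

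For Hpgds and Ptgds the start in RefSeq lies inside the span of the deposited gene, so only 30-base stretches holding motif matches are shown, on the minus strand. They are chr6:65144881-65144910 and chr6:65144763-65144792 for Hpgds and chr2:25469759-25469788 for Ptgds.
Hpgds, bases -180 to -151: ctctTTATGCAAatacgttggactaatgta
Hpgds, bases -62 to -33: aggcttttaggtgGAGGAAgtggcctctgg
Ptgds, bases -39 to -10: agccTGACTCAtaaataGGGGGTCTCCaca
The capitals are a C/EBP match on the opposite strand and a PU.1 match in Hpgds, and an AP-1 match (TGANTCA) followed by an NF-kB consensus match in Ptgds. The search also covered the TATA box (TATAAA), the CRE half-site (TGACG) and the E-box (CACGTG), on both strands. Among 32851 RefSeq promoter windows of the same length, 23.3% held the PU.1 motif, 9.56% the C/EBP motif, 6.75% the AP-1 motif, 3.90% the NF-kB consensus, 12.4% the TATA box, 17.8% the CRE half-site and 6.02% the E-box. In the windows not printed, Ptgs1 held a PU.1 match (bases -24 to -19) and Ptges a PU.1 match on the opposite strand (bases -149 to -144), and Ltc4s held none of the motifs searched. The RefSeq start of Ptgs1, base 36230426, also lies inside its deposited span, which begins at base 36216744. These matches describe the letters of the windows and are not evidence of binding.

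Ptgs1 encodes the constitutive cyclooxygenase, known for prostanoid synthesis in platelets and many resting tissues (Entrez 19224, chr2:36216744-36252275, plus strand, mm10). Its level was 25.1 and 39.9 CPM in F-H-L and 8.04 and 26.6 CPM in F-H, against 179 and 34.2 CPM in F-L. F-L replicate 1 was far above the other 5 libraries, and both F-H libraries lay below both F-L libraries. edgeR gave a log2 fold change of -2.62 ± 0.95 (SE) in F-H against F-L, with an adjusted p of 0.144, -1.71 ± 0.92 in F-H-L against F-L (adjusted p = 0.344) and 0.91 ± 0.90 in F-H-L against F-H (adjusted p = 0.723). Without F-L replicate 1 the values against F-L were -1.0 (F-H, adjusted p = 0.346) and -0.16 (F-H-L, adjusted p = 0.908). Without F-L replicate 2 they were -3.29 (F-H, adjusted p = 0.0238, past the test) and -2.44 (F-H-L, adjusted p = 0.0691). Leaving out F-H replicate 2 gave -3.69 in F-H against F-L and 2.02 in F-H-L against F-H. With the mean level of the epididymis markers in the model, the value in F-H against F-L was 0.21, of the opposite sign, and that in F-H-L against F-H was -0.82 (-0.34 when scaled to the adipocyte markers).

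Ptgs2, the inducible cyclooxygenase that many cells switch on in inflammation (Entrez 19225, chr1:150100031-150108234, plus strand), was high in a single library. It had 1.28 and 1.41 CPM in F-H-L and 4.19 and 219 CPM in F-H, against 3.58 and 1.93 CPM in F-L. The F-H replicate 2 value came from 9059 counts, against 56 to 190 counts in the other 5 libraries. The fitted log2 difference was 5.34 ± 1.73 in F-H against F-L (adjusted p = 0.120) and 0.66 without F-H replicate 2. In F-H-L against F-H it was -6.38 ± 1.82 (adjusted p = 0.375) and -1.63 without that library, and in F-H-L against F-L it was -1.03 ± 1.49 (adjusted p = 0.711), or 0.71 with the epididymis markers in the model. The sum of the 12 mast cell markers was also highest in F-H replicate 2. It was 82.8 and 99.5 CPM in F-H-L and 270.3 and 451 CPM in F-H, against 51.1 and 83.5 CPM in F-L. The sums of the adipose progenitor (3860.0 CPM) and platelet (115 CPM) markers were highest in that library too. Those of the remaining cell type lists were highest in other libraries. The part of any of these cells in the Ptgs2 value was not tested.

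The ratio of the 2 cyclooxygenases per length followed from these levels. On the log2 scale of RPKM, Ptgs2 relative to Ptgs1 stood at -3.84 and -4.37 in F-H-L and -0.49 and 3.49 in F-H, against -5.19 and -3.70 in F-L. Both F-H libraries were above the other 4, F-H replicate 1 with the lowest Ptgs1 level of the 6 and F-H replicate 2 with the highest Ptgs2 level. In F-H replicate 2 alone was Ptgs2 the more abundant cyclooxygenase transcript, 11.3 times Ptgs1 per length.

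Hpgds encodes the glutathione-dependent prostaglandin D synthase of mast cells, macrophages and other blood-derived cells (Entrez 54486, chr6:65117293-65145015, minus strand). It was at 9.42 and 4.48 CPM in F-H-L and 107 and 98.2 CPM in F-H, against 2.82 and 2.88 CPM in F-L. The groups did not overlap in any comparison: F-H was highest, F-H-L between and F-L lowest. Hpgds rose 36.0-fold in F-H against F-L (log2 fold change 5.17 ± 0.47, adjusted p = 0.0447, higher in 2 of 2 libraries). The difference was -3.89 ± 0.44 in F-H-L against F-H (adjusted p = 0.219) and 1.29 ± 0.40 in F-H-L against F-L (adjusted p = 0.274).

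When libraries were left out, the size of the Hpgds difference in F-H against F-L was steadier than its call. Its log2 fold change was 5.23 and 5.23 without either F-H-L library, 5.16 and 5.30 when F-H replicate 1 or replicate 2 was left out, and 5.15 and 5.27 when F-L replicate 1 or replicate 2 was. The adjusted p was 0.132 and 0.134 without F-H-L replicate 1 and replicate 2, 0.259 and 0.0810 without F-H replicate 1 and replicate 2, and 0.00590 and 0.00568 without F-L replicate 1 and replicate 2. In F-H-L against F-H, the difference in Hpgds passed the test when either F-L library was left out, at -3.95 (adjusted p = 0.0209) without replicate 1 and -3.94 (adjusted p = 0.0281) without replicate 2. The call in F-H against F-L was also lost with median-ratio factors (adjusted p = 0.0549), robust empirical Bayes (0.0513) and both groups alone (0.191). Scaling to the adipocyte markers lost it too, with a smaller log2 fold change of 3.21 (adjusted p = 0.177). So did the epididymis markers in the model, at 4.94 (adjusted p = 0.521). The deposited table lists Gm17147 and Gm35906 on the opposite strand within the Hpgds span, with at most 10.559% and 5.59% of its counts in any library, and the strand setting of the counting is not given in the sources used here.

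Ptgds encodes the lipocalin-type prostaglandin D synthase, an abundant secreted protein of the male reproductive tract and the brain (Entrez 19215, chr2:25466709-25470110, minus strand). Its pattern ran opposite to that of Hpgds, with 115 and 97.6 CPM in F-H-L and 0.441 and 4.67 CPM in F-H, against 1623 and 572 CPM in F-L. In counts the F-H libraries held 20 and 193, against 72076 and 31976 in F-L. The groups did not overlap, with F-L highest, F-H-L between and F-H lowest. On the log2 scale the difference was -8.75 ± 1.45 in F-H against F-L, and it did not pass the test (adjusted p = 0.0595). It was -3.37 ± 1.13 in F-H-L against F-L (adjusted p = 0.274) and 5.38 ± 1.25 in F-H-L against F-H (adjusted p = 0.328).

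The sum of the epididymis markers followed the same order as Ptgds over the 3 groups, at 2308 and 2419 CPM in F-H-L and 4.10 and 652 CPM in F-H, against 24824 and 4648 CPM in F-L. Of these 20 markers 7 were at 0 in F-H replicate 1 and 1 in F-H replicate 2, and none in the other 4 libraries. The median log2 fold change of the 19 tested was -6.20 in F-H against F-L, but not all moved with the sum. In that comparison 14 were negative and 5 positive, and in F-H-L against F-H 13 were positive and 6 negative. With the mean level of these markers in the model, the Ptgds value in F-H against F-L was -5.44 (adjusted p = 0.521). Ptgds passed the test at -7.83 (adjusted p = 0.0123) without F-L replicate 1 and at -9.24 (adjusted p = 0.00890) without F-L replicate 2. It was -11.23 (adjusted p = 0.0810) without F-H replicate 2, which left the library with 20 counts as the only F-H value, and in F-H-L against F-H it was then 7.91 (adjusted p = 0.322). The part of epididymal tissue in the Ptgds levels was not tested.

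**Figure D2:**
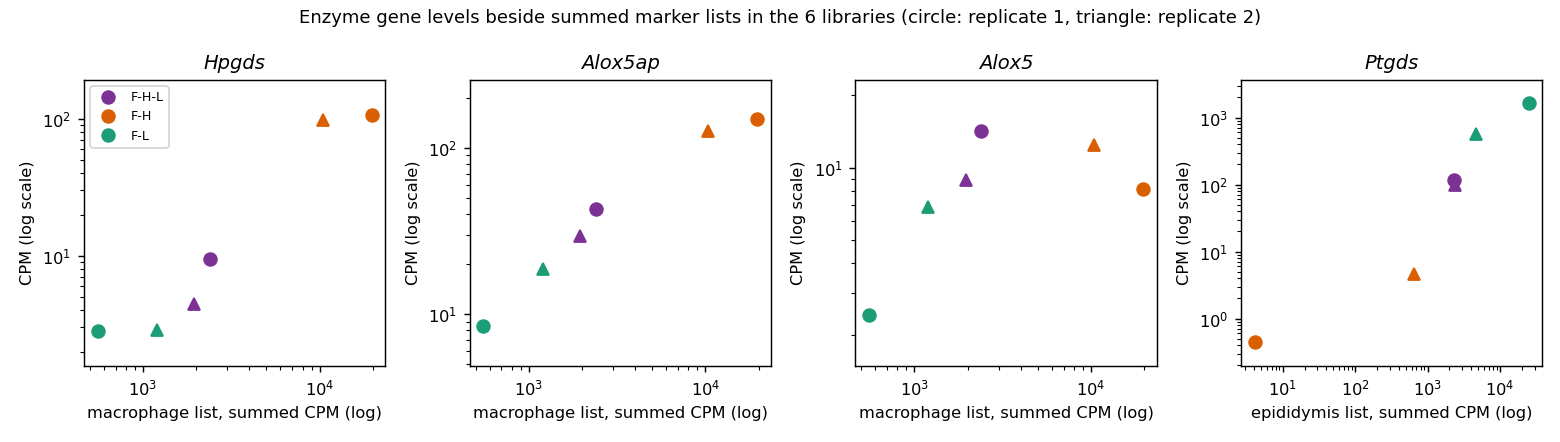
Level of 4 of the genes (CPM, log axis) against the summed CPM of a marker list (log axis) in the 6 libraries: Hpgds, Alox5ap and Alox5 against the 18 macrophage markers, Ptgds against the 20 epididymis markers. Hpgds and Alox5ap follow the order of the macrophage sum in all 6 libraries. Ptgds follows that of the epididymis sum in all but the pair of F-H-L libraries. Alox5 in F-H replicate 1 (8.11 CPM) is below F-H-L replicate 1 (14.2 CPM), although the macrophage sum of F-H replicate 1 is higher.

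The log2 differences of the 2 prostaglandin D synthases had opposite signs in each of the 3 comparisons, except that both were negative in F-H-L against F-L when libraries were scaled to the adipocyte markers (Hpgds -1.88, Ptgds -7.08). On the log2 scale of RPKM, Hpgds relative to Ptgds stood at -5.59 and -6.43 in F-H-L and 5.95 and 2.41 in F-H, against -11.15 and -9.61 in F-L. Hpgds was thus the more abundant of the pair per length in both F-H libraries, 61.8 and 5.32 times Ptgds. Ptgds was the more abundant in the other 4 libraries, 48.2 and 86.0 times Hpgds in F-H-L and 2275 and 784 times in F-L.

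**Figure D3:**
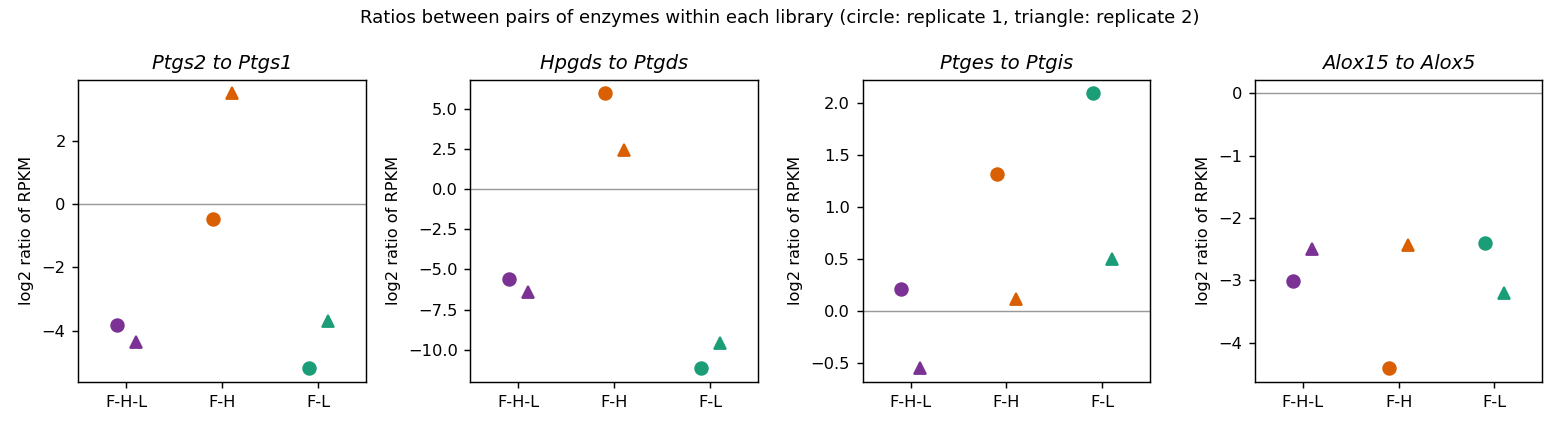
Log2 ratio of RPKM between 2 enzymes of the same step or branch in each library of F-H-L, F-H and F-L; the line at 0 marks equal levels per length. The Hpgds to Ptgds ratio is above 0 in both F-H libraries (5.95 and 2.41) and negative in the other 4.

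Ptges, the microsomal prostaglandin E synthase that works with the inducible cyclooxygenase (Entrez 64292, chr2:30889471-30903297, minus strand), was alike in the high-fat and cycled groups. It had 59.7 and 60.6 CPM in F-H-L and 53.3 and 56.1 CPM in F-H, against 261 and 76.4 CPM in F-L. The F-H-L and F-H libraries lay close together and the F-L libraries above them, with F-L replicate 1 by far the highest. The log2 fold change was -1.63 ± 0.58 in F-H against F-L (adjusted p = 0.139), -1.49 ± 0.57 in F-H-L against F-L (adjusted p = 0.276) and 0.14 ± 0.56 in F-H-L against F-H (adjusted p = 0.946). Without F-L replicate 1 the values against F-L were -0.49 (F-H, adjusted p = 0.142) and -0.42 (F-H-L, adjusted p = 0.237), and without F-L replicate 2 they were -2.17 (adjusted p = 0.00401) and -2.10 (adjusted p = 0.00712), so the size and the call both turned on which F-L library was used. The value in F-H-L against F-H was -1.11 when scaled to the adipocyte markers and -0.45 with the epididymis markers in the model.

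Ptgis, the prostacyclin synthase of vessel walls and stromal cells (Entrez 19223, chr2:167203196-167240537, minus strand), had 24.8 and 42.4 CPM in F-H-L and 10.3 and 24.9 CPM in F-H, against 29.6 and 26.0 CPM in F-L. F-H replicate 1 was lowest and F-H-L replicate 2 highest, and F-H-L overlapped both other groups. edgeR gave a log2 fold change of -0.66 ± 0.52 in F-H against F-L (adjusted p = 0.453), 0.28 ± 0.51 in F-H-L against F-L (adjusted p = 0.781) and 0.93 ± 0.52 in F-H-L against F-H (adjusted p = 0.556). In F-H against F-L it was -0.10 without F-H replicate 1 and -1.37 without F-H replicate 2, and in F-H-L against F-H it was 0.45 and 1.72 with the same libraries left out; none of these passed the test (adjusted p of 0.288 or more). The epididymis markers in the model gave 0.60 in F-H against F-L, and scaling to the adipocyte markers gave -3.06 in F-H-L against F-L and -0.33 in F-H-L against F-H. Per length, Ptges relative to Ptgis stood at 0.21 and -0.55 on the log2 scale in F-H-L and 1.32 and 0.11 in F-H, against 2.09 and 0.50 in F-L, with the F-H and F-L libraries interleaved.

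In the leukotriene branch, Alox5ap, the 5-lipoxygenase-activating protein that hands arachidonic acid to the enzyme (Entrez 11690, chr5:149265004-149288153, plus strand), had the largest difference of the 4 genes in F-H against F-L. It had 42.9 and 29.5 CPM in F-H-L and 148 and 126 CPM in F-H, against 8.45 and 18.6 CPM in F-L. The groups did not overlap, in the same order as for Hpgds. In F-H against F-L the log2 fold change was 3.34 ± 0.48, which did not pass the test (adjusted p = 0.0523). It was 1.42 ± 0.45 in F-H-L against F-L (adjusted p = 0.274) and -1.92 ± 0.45 in F-H-L against F-H (adjusted p = 0.328). Alox5ap passed in F-H against F-L without F-L replicate 1 (2.87, adjusted p = 0.00675) or replicate 2 (4.11, adjusted p = 0.00417), in F-H-L against F-H without either F-L library (-1.99, adjusted p = 0.0291, and -1.98, adjusted p = 0.0347), and in F-H-L against F-L without F-L replicate 2 (2.12, adjusted p = 0.0178). Scaled to the adipocyte markers, its value in F-H-L against F-L was -1.25.

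Alox5, the 5-lipoxygenase itself (Entrez 11689, chr6:116410071-116461178, minus strand), had 14.2 and 8.90 CPM in F-H-L and 8.11 and 12.4 CPM in F-H, against 2.43 and 6.84 CPM in F-L. The F-H-L and F-H libraries overlapped and all 4 lay above both F-L libraries. The fitted log2 difference was 1.15 ± 0.67 in F-H against F-L (adjusted p = 0.317), 1.32 ± 0.68 in F-H-L against F-L (adjusted p = 0.332) and 0.17 ± 0.66 in F-H-L against F-H (adjusted p = 0.944). Without F-L replicate 1 the values against F-L were 0.58 (F-H, adjusted p = 0.482) and 0.68 (F-H-L, adjusted p = 0.457). Without F-L replicate 2 they were 2.16 (F-H, adjusted p = 0.0441, past the test) and 2.27 (F-H-L, adjusted p = 0.0538). When libraries were scaled to the adipocyte markers, each of the 3 values was negative (-0.12, -1.16 and -1.04).

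Ltc4s, the leukotriene C4 synthase of mast cells, eosinophils and macrophages (Entrez 17001, chr11:50236461-50238532, minus strand), was highest in the cycled group. It had 82.3 and 133 CPM in F-H-L and 48.2 and 72.4 CPM in F-H, against 4.62 and 30.8 CPM in F-L. No group overlapped another, with F-L replicate 1 far below F-L replicate 2. On the log2 scale the difference was 1.77 ± 0.86 in F-H against F-L (adjusted p = 0.243), 2.60 ± 0.89 in F-H-L against F-L (adjusted p = 0.274) and 0.84 ± 0.84 in F-H-L against F-H (adjusted p = 0.726). Without F-L replicate 1 the values against F-L were 0.96 (F-H, adjusted p = 0.154) and 1.73 (F-H-L, adjusted p = 0.0635). Without F-L replicate 2 both passed the test, at 3.79 (F-H, adjusted p = 0.00672) and 4.56 (F-H-L, adjusted p = 0.00873). Scaled to the adipocyte markers, the value in F-H-L against F-H was -0.43. An entry on the opposite strand, ENSMUSG00000097887.2, overlaps Ltc4s and held 64 to 267 counts, at most 31.22% of the Ltc4s count, in F-L replicate 1.

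Alox15, which in the mouse encodes the leukocyte-type lipoxygenase that inserts oxygen at a different position of arachidonic acid (Entrez 11687, chr11:70344147-70382635, minus strand), had the lowest RPKM of the members in F-H and F-L. This order may depend on the deposited length of 9287 bases, against 2454 exonic bases in GENCODE M21. Alox15 had 5.77 and 5.18 CPM in F-H-L and 1.26 and 7.58 CPM in F-H, against 1.51 and 2.45 CPM in F-L. The F-H libraries held both the lowest and the highest value, so F-H overlapped both other groups. The log2 fold change was 1.16 ± 0.94 in F-H against F-L (adjusted p = 0.467), 1.47 ± 0.94 in F-H-L against F-L (adjusted p = 0.410) and 0.31 ± 0.93 in F-H-L against F-H (adjusted p = 0.921), and each was negative when scaled to the adipocyte markers (-0.53, -1.43 and -0.90). Without F-H replicate 2 the value was -0.59 in F-H against F-L and 2.13 in F-H-L against F-H, and without F-H replicate 1 it was 2.00 and -0.45. Relative to Alox5 it stood at -3.01 and -2.50 in F-H-L and -4.41 and -2.43 in F-H, against -2.40 and -3.20 in F-L on the log2 scale of RPKM, with all groups overlapping. The deposited span of Alox15 reaches beyond the gene in GENCODE M21, which ends at 70352031, so reads of neighbouring sequence may be included.

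**Figure D4:**
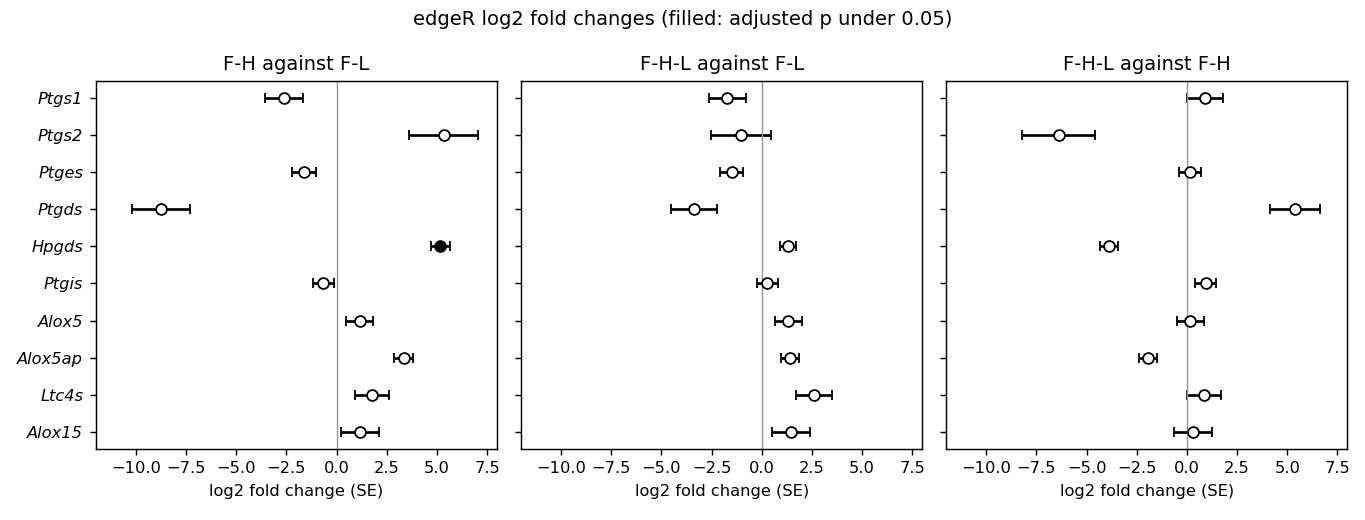
Log2 fold change (point) with its standard error (bar) of the 10 genes in F-H against F-L, F-H-L against F-L and F-H-L against F-H, from edgeR; a filled point passed an adjusted p of 0.05. The filled point is Hpgds in F-H against F-L (5.17 ± 0.47).

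The leukotriene genes and Hpgds are known from macrophages, whose markers differed between the groups. Of the 18 macrophage markers all had a positive log2 fold change in F-H against F-L and 5 passed the test, beside 0.866% of all genes tested. Their median was 4.05, above the values of Alox5ap (3.34), Ltc4s (1.77) and Alox5 (1.15) and below that of Hpgds (5.17). The median of the list was 1.19 in F-H-L against F-L and -2.77 in F-H-L against F-H. Set against the mean log2 CPM of the macrophage markers in the same library, Hpgds stood at -2.96 and -3.68 in F-H-L and -2.33 and -1.40 in F-H, against -2.80 and -3.80 in F-L. Its 2 F-H libraries were the highest of the 6 on this scale.

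Alox5ap stayed in a narrower band relative to the same markers, at -0.78 and -0.97 in F-H-L and -1.86 and -1.03 in F-H, against -1.23 and -1.13 in F-L. F-H replicate 2 lay among the other groups there and F-H replicate 1 below them. Alox5 stood at -2.37 and -2.70 in F-H-L and -6.04 and -4.37 in F-H, against -3.00 and -2.57 in F-L, with both F-H libraries below the other 4. Ltc4s stood at 0.16 and 1.20 in F-H-L and -3.48 and -1.84 in F-H, against -2.09 and -0.40 in F-L, where both F-H-L libraries were above the other 4. The part of macrophage number in these values was not tested.

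Markers of other cells known to make these lipids were read in the same way. Of the 12 mast cell markers 11 had a positive value in F-H against F-L, with a median log2 fold change of 3.82, and edgeR called 0 of them (7 at an unadjusted p under 0.05, 8 by DESeq2). Over all genes tested the shares were 29.2% at an unadjusted p under 0.05 and 27.1% by DESeq2. The 7 eosinophil markers summed to 5.98 and 2.54 CPM in F-H-L and 9.89 and 7.97 CPM in F-H, against 0.225 and 1.83 CPM in F-L, with 1 to 3 of them at 0 in each library. The 10 neutrophil markers summed to 38.5 and 27.7 CPM in F-H-L and 38.6 and 24.9 CPM in F-H. In F-L they summed to 2.59 and 7.46 CPM. Of 9 neutrophil markers tested, 5 had a positive and 4 a negative value in F-H against F-L. The 6 platelet markers, of cells rich in Ptgs1, summed to 41.3 and 59.3 CPM in F-H-L and 105 and 115 CPM in F-H, against 79.8 and 35.5 CPM in F-L. They did not move together: of 5 tested, 2 had a positive and 3 a negative value in F-H against F-L. The 10 endothelial markers, of cells known to express Ptgis, summed to 1491 and 2226 CPM in F-H-L and 695 and 1227 CPM in F-H, against 267 and 857 CPM in F-L. Their part in the values of the members was not tested.

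Upstream of these enzymes, the list of 23 phospholipase and lipase genes that free arachidonic acid or its precursors had 17 members tested and a median log2 fold change of 0.21 in F-H against F-L. Of these, edgeR called 2 higher and 0 lower (8 at an unadjusted p under 0.05), while DESeq2 called 4 higher (Pla2g4a, Pla2g7, Pla2g15 and Daglb) and 4 lower (Pla2g2c, Pla2g3, Pla2g10 and Pla2g12a). The shares over all genes tested were 0.866% by edgeR, 29.2% at an unadjusted p under 0.05 and 27.1% by DESeq2. Daglb, a diacylglycerol lipase, had 40.0 and 35.3 CPM in F-H-L and 213 and 142 CPM in F-H, against 11.6 and 17.1 CPM in F-L, and rose by 3.63 ± 0.37 on the log2 scale in F-H against F-L (adjusted p = 0.0447). Pla2g15, the lysosomal phospholipase A2, had 85.5 and 102 CPM in F-H-L and 252 and 179.7 CPM in F-H, against 29.3 and 37.8 CPM in F-L, and rose by 2.69 ± 0.32 (adjusted p = 0.0480). Pla2g4a, the cytosolic phospholipase A2 best known for supplying cyclooxygenases, had 14.7 and 10.4 CPM in F-H-L and 27.6 and 29.1 CPM in F-H, against 15.0 and 9.70 CPM in F-L. It was named here after its values were seen. Both F-H libraries lay above the other 4, but the difference of 1.20 ± 0.40 in F-H against F-L did not pass the edgeR test (adjusted p = 0.124), nor did that of -1.17 ± 0.40 in F-H-L against F-H (adjusted p = 0.424). In F-H-L against F-H the list had a median of 1.07 and 0 of 17 passed the edgeR test. At an unadjusted p under 0.05 it counted 5, beside 10.6% of all genes, and DESeq2 called 3, beside 5.93%. The values were -2.24 ± 0.34 for Daglb (adjusted p = 0.233) and -2.95 ± 0.53 for Pla2g7, the secreted enzyme that degrades platelet-activating factor (adjusted p = 0.244).

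In F-H-L against F-L the same list had a median of 0.65 with 0 of 17 past the edgeR test. It counted 6 at an unadjusted p under 0.05, beside 17.8% of all genes, and 3 by DESeq2, beside 11.6%. Its smallest p-values belonged to Pla2g15 (1.48 ± 0.31, adjusted p = 0.274) and Daglb (1.39 ± 0.34, adjusted p = 0.274). For both genes the F-H-L libraries lay between the F-H and F-L libraries, as they did for Hpgds.

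Of 23 other enzymes of eicosanoid metabolism 21 were tested, with a median of 0.62 in F-H against F-L. Here edgeR called 1 higher and 0 lower, beside 0.866% of all genes (8 at an unadjusted p under 0.05, beside 29.2%). DESeq2 called 6 higher (Tbxas1, Lta4h, Ggt5, Dpep1, Dpep2 and Cyp4f18) and 2 lower (Alox12 and Aloxe3), beside 27.1% of all genes. The gene called by edgeR, Dpep2, a membrane dipeptidase that converts leukotriene D4 to leukotriene E4, had 5.18 and 6.16 CPM in F-H-L and 73.2 and 53.8 CPM in F-H, against 1.51 and 1.93 CPM in F-L. It rose by 5.20 ± 0.39 on the log2 scale (adjusted p = 0.0447), and its value in F-H-L against F-H was -3.48 ± 0.36 (adjusted p = 0.219). Tbxas1, the thromboxane synthase, was close to the threshold with 15.1 and 10.3 CPM in F-H-L and 194 and 87.1 CPM in F-H, against 3.47 and 7.59 CPM in F-L. The fitted log2 difference was 4.67 ± 0.64 in F-H against F-L (adjusted p = 0.0501) and -3.47 ± 0.61 in F-H-L against F-H (adjusted p = 0.244). In F-H-L against F-L the list had a median of 0.95 and edgeR called 0 of 21. It counted 8 at an unadjusted p under 0.05, beside 17.8% of all genes, and 5 by DESeq2, beside 11.6%. The smallest p-values were those of Dpep2 (1.72 ± 0.34, adjusted p = 0.274) and Ggt5, which removes glutamate from leukotriene C4 (1.95 ± 0.46, adjusted p = 0.274). The list median in F-H-L against F-H was 0.15 and edgeR called 0 of 21. There the list counted 3 at an unadjusted p under 0.05, beside 10.6% of all genes, and 3 by DESeq2, beside 5.93%.

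The receptors for these lipids were tested as 2 lists, and edgeR called 0 of their members in any comparison. Of 9 prostanoid receptor genes 8 were tested, and 8 of 8 had a positive value in F-H against F-L, with a median log2 fold change of 1.09. Of all 22289 genes tested, 10266 were positive there. For 3 of the 8 receptor genes both F-H libraries lay above both F-L libraries, beside 27.0% of all genes. The list median was 0.72 in F-H-L against F-L and -0.89 in F-H-L against F-H. At an unadjusted p under 0.05 the prostanoid receptors counted 3, 1 and 1 in F-H against F-L, F-H-L against F-L and F-H-L against F-H, and DESeq2 called 3, 1 and 1. Over all genes the shares were 29.2%, 17.8% and 10.6% at an unadjusted p under 0.05, and 27.1%, 11.6% and 5.93% by DESeq2. Ptgir, the prostacyclin receptor, had 6.41 and 5.93 CPM in F-H-L and 11.8 and 17.9 CPM in F-H, against 1.53 and 2.20 CPM in F-L, a difference of 2.99 ± 0.54 in F-H against F-L (adjusted p = 0.0651). Of the prostaglandin E2 receptor genes, Ptger2 had a difference of 3.41 ± 0.85 in F-H against F-L (adjusted p = 0.0886). Ptger4 had the smallest p of the list in F-H-L against F-H, at -1.85 ± 0.50 (adjusted p = 0.356). All 7 genes of the list of leukotriene and related lipid receptors were tested, with medians of 1.66 in F-H against F-L, 1.28 in F-H-L against F-L and 0.03 in F-H-L against F-H. They counted 3, 0 and 0 at an unadjusted p under 0.05, and DESeq2 called 4, 0 and 0, beside the same shares of all genes. The 4 were Cysltr1, Cysltr2 and Fpr2 on the higher side and Ltb4r2 on the lower side. By edgeR the Ltb4r2 value in F-H against F-L was -4.74 ± 2.09 (adjusted p = 0.203), with 0.0441 and 0.242 CPM in F-H, against 7.57 and 0.161 CPM in F-L. Cysltr2, a receptor for cysteinyl leukotrienes, had 1.12 and 0.679 CPM in F-H-L and 4.49 and 0.606 CPM in F-H, against 0.0676 and 0.161 CPM in F-L (4.43 ± 1.28 in F-H against F-L, adjusted p = 0.102, on 3 and 9 counts in F-L). Fpr2, a receptor of formyl peptides and lipoxin, had 0.799 and 0.176 CPM in F-H-L and 13.1 and 0.557 CPM in F-H, against 0.0450 and 0.251 CPM in F-L (2 and 14 counts), so its value of 5.49 ± 1.91 (adjusted p = 0.135) came mainly from F-H replicate 1. The leukotriene B4 receptor genes Ltb4r1 and Ltb4r2 had adjusted p of 0.336 or more in F-H-L against F-L and 0.635 or more in F-H-L against F-H.

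The 6 genes of prostaglandin breakdown and transport had list medians of 0.89 in F-H against F-L, 0.74 in F-H-L against F-L and -0.36 in F-H-L against F-H, and edgeR called 0 in each. They counted 2, 1 and 0 at an unadjusted p under 0.05, beside 29.2%, 17.8% and 10.6% of all genes. DESeq2 called 1, 0 and 0, beside 27.1%, 11.6% and 5.93%. Hpgd, the dehydrogenase that starts the breakdown of prostaglandin E2, had 53.3 and 55.9 CPM in F-H-L and 54.3 and 121 CPM in F-H, against 90.1 and 69.2 CPM in F-L, with overlapping F-H and F-L libraries. The exporter genes Abcc1 and Abcc4 had the smallest p-values in F-H against F-L, at 0.87 ± 0.32 (adjusted p = 0.146) and 0.92 ± 0.34 (adjusted p = 0.151). Ptgr2, a prostaglandin reductase, led in F-H-L against F-L, at 0.88 ± 0.30 (adjusted p = 0.274).

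**Figure D5:**
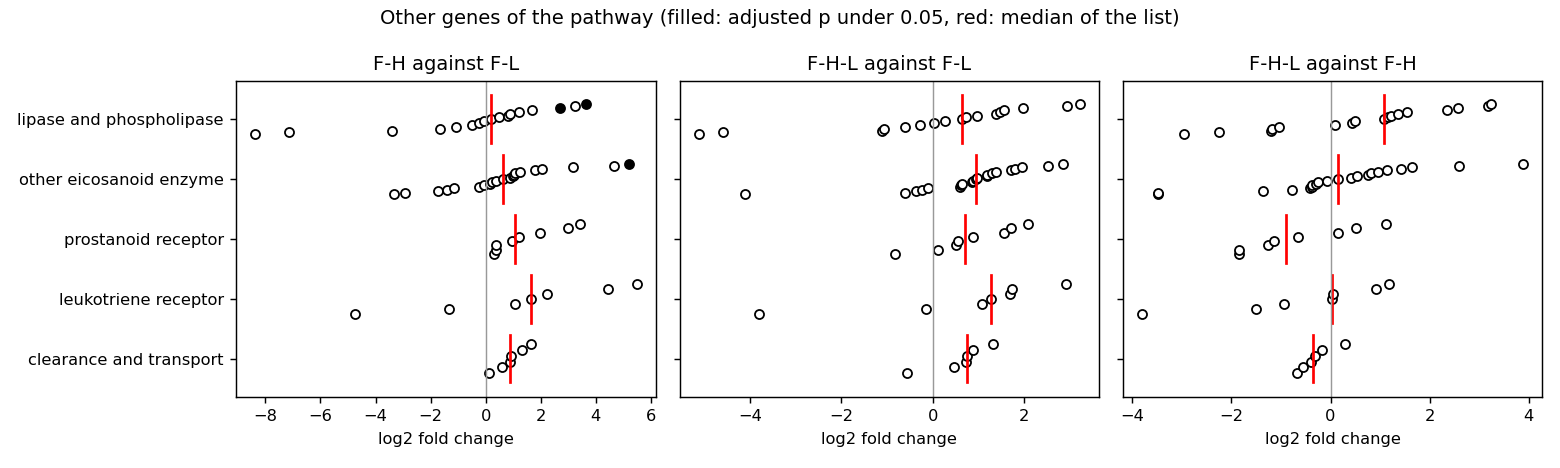
Log2 fold change of each tested gene of the 5 other pathway lists in F-H against F-L, F-H-L against F-L and F-H-L against F-H; filled points passed an adjusted p of 0.05 and red lines mark list medians. The 3 filled points, Daglb, Pla2g15 and Dpep2, all lie in F-H against F-L. All 8 prostanoid receptor genes lie to the right of 0 there, where 10266 of all 22289 genes tested had a positive value.

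By likeness of log2 CPM over the 6 libraries (Pearson's r, a description over 6 points that share their libraries and diets), the genes nearest to Hpgds among 10811 with enough signal were Fnip2 and Nceh1, each at r = 0.9962. Nceh1 had 22.2 and 14.9 CPM in F-H-L and 200.2 and 157 CPM in F-H, against 8.27 and 11.0 CPM in F-L. The genes nearest to Alox5ap were Lama2 (r = 0.9985) and Cd300lb (r = 0.9984), and those nearest to Ptgds were Edn3 (r = 0.9988) and 4930452B06Rik (r = 0.9978). Edn3 was highest in F-L as Ptgds was, at 6.55 and 4.58 CPM in F-H-L and 0 and 0.339 CPM in F-H, against 64.5 and 19.3 CPM in F-L. For Ptgs2 the nearest were Gem (r = 0.9671) and Errfi1 (r = 0.9650), which were highest in F-H replicate 2 but over a far smaller range, with Gem at 10.1 and 9.30 CPM in F-H-L and 10.9 and 19.6 CPM in F-H, against 12.3 and 11.3 CPM in F-L. Ptgs1 was nearest to Baiap2l1 and Stc1, Ptges to Sgsm2 and ENSMUSG00000105881.1, Ptgis to Lmcd1 and Sat2, Alox5 to Fcrls and BC023829, Ltc4s to Lgals1 and Tecpr1, and Alox15 to Entpd5 and Hspb6.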

How the data were processed

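Per the labels' protocols, messenger RNA libraries (TruSeq RNA LT/HT) were sequenced on an Illumina HiSeq from RNA with an integrity value above 7.0. The submitters' processing notes name build mm10 and, with no role stated, HISAT2 2.1.0, HTSeq and bcl2fastq; annotation release and strand setting: not given in the sources used here. In the deposited table each library has a column of raw counts, and RPKM that the authors computed from the counts, the deposited gene length in bases (unit: other) and the library total, checked in 100% of genes with more than 50 counts. Of its 48897 genes, 27 had symbols turned into dates, restored here.

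The test was run on the counts with edgeR 4.0.16 in R 4.3.3 (quasi-likelihood, TMM, filterByExpr, 1 term per group over all 6 libraries, 3 residual degrees of freedom, two-sided). Adjusted p is by Benjamini-Hochberg over 22289 genes, with a threshold of 0.05. TMM factors were 0.968 and 0.902 in F-H-L and 0.922 and 0.986 in F-H, against 1.08 and 1.16 in F-L. Replicates differed beyond counting noise (chi-square per degree of freedom 59.6, 226.2 and 710.1 in F-H-L, F-H and F-L). Alternatives used limma 3.58.1 and DESeq2 1.42.0. Python 3.11.15 with numpy 2.4.6, pandas 2.3.3 and matplotlib 3.10.9 made tables and plots, and the scripts were tested on simulated data. An exact permutation test of 2 against 2 libraries cannot give a p below 0.333, so none was used.

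The members and lists were chosen with earlier results of these data known. Beside the members, the text names the genes of each of 5 pathway lists past the test (at most 4), otherwise the 2 with the smallest p per comparison. For each member it also names the 2 most correlated genes that reach a mean of 5 RPKM in some group. The sum or median of a marker list is a description.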

Additional observations from a re-analysis of the deposited data

How the results depend on the processing

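With 2 libraries per group the number of calls depended on the method. In F-H against F-L edgeR called 193 genes and 1 member. DESeq2 called 6035 and 6, no low-count filter 6025 and 7, adipocyte scaling 2801 and 2, limma on log2(RPKM + 1) 411 and 2, on log2(RPKM + 0.1) 1040 and 3, and on quantile-normalized values 858 and 3. Median-ratio factors, robust empirical Bayes, the epididymis covariate and both groups alone each called 0 genes (6429, 6392, 1435 and 4614 at an unadjusted p under 0.05) and 0 members. With libraries left out the range was 0 to 5799 genes and 0 to 7 members, with 4474 and 3 when F-L replicate 1 was left out, 5799 and 7 when replicate 2 was, and 0 without any of the other 4. In F-H-L against F-L, against 0 and 0, DESeq2 called 2425 and 1, adipocyte scaling 4230 and 4, no filter 3910 and 5, and leaving out libraries 0 to 3508 and 0 to 3 (2084 genes once F-L replicate 1 was left out and 3508 once replicate 2 was). In F-H-L against F-H, against 0 and 0, DESeq2 called 1194 and 4, no filter 1759 and 4, both groups alone 289 and 2, and leaving out libraries 0 to 828 and 0 to 2 (828 once F-L replicate 1 was left out and 608 once replicate 2 was). The cause was not tested.

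Between libraries of equal replicate number, deviations from the group mean correlated at 0.024, -0.138 and -0.019 across genes. With 2 libraries per group that also differ in tissue markers, these values cannot decide whether the libraries were paired. With a replicate block, 0 genes and 0 members were called in F-H against F-L, and Hpgds had an adjusted p of 0.10. Hpgds also lost its call under median-ratio factors (adjusted p = 0.0549), robust empirical Bayes (0.0513), adipocyte scaling (3.21, 0.177), the epididymis covariate (4.94, 0.521) and both groups alone (0.191); over all alternatives its log2 fold change was 3.21 to 5.30.

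Of 30 member results, 14 kept their sign under every alternative run and 26 did outside adipocyte scaling and the epididymis covariate. Adipocyte scaling moved the median of all genes to -2.07 in F-H against F-L, -3.32 in F-H-L against F-L and -1.14 in F-H-L against F-H. It turned Alox5 (-0.12) and Alox15 (-0.53) in F-H against F-L, Hpgds (-1.88), Ptgis (-3.06), Alox5 (-1.16), Alox5ap (-1.25) and Alox15 (-1.43) in F-H-L against F-L, and Ptgs1 (-0.34), Ptges (-1.11), Ptgis (-0.33), Alox5 (-1.04), Ltc4s (-0.43) and Alox15 (-0.90) in F-H-L against F-H. The epididymis covariate turned Ptgs1 (0.21) and Ptgis (0.60) in F-H against F-L, Ptgs2 (0.71) in F-H-L against F-L, and Ptgs1 (-0.82), Ptges (-0.45) and Alox15 (-0.78) in F-H-L against F-H. Limma gave -0.03 for Ptgis in F-H-L against F-L with either pseudocount, and quantile normalization -0.01 for Alox15 in F-H-L against F-H. With libraries left out, Alox15 ran from -0.59 to 2.00 in F-H against F-L, Ptgis from -0.09 to 0.68 in F-H-L against F-L, and Alox5 from -0.19 to 0.52 and Alox15 from -0.45 to 2.13 in F-H-L against F-H. Depth did not limit the members, each with at least 20 counts in every library; the limits given for a count of 0 cover counting error only, while the standard errors include the spread between libraries.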
